A study of Mus musculus with 18 samples.

Results

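Secreted factors of brown adipocytes, 9 in number, were followed across an experiment that lowered the lipolytic co-activator ABHD5 by knockdown and re-expressed it. The 9 genes were taken by symbol from the 17672 genes of the deposited table: Vegfa and Fgf2 (angiogenic factors), Nrg4 and Metrnl (factors linked to nerves and to adipose tissue remodelling), Gdf15 and Bmp8b (members of the TGF-beta superfamily), Il6 and Lif (cytokines of the IL-6 family) and Adipoq (the hormone adiponectin). All 9 were found. Of these, 6 passed the filter on low counts and were tested, whereas Il6, Lif and Bmp8b were not.

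The cells were differentiated from an immortalised mouse brown preadipocyte line. Every group carried a stable shRNA against Abhd5 together with an shRNA-resistant mCherry-ABHD5 that doxycycline (Dox) induces, so the cells labelled ABHD5 KD and those labelled WT differ only in Dox, given at 1 µg/ml for 24 to 48 h by the labels and 24 h by the study's account of this experiment. Without Dox, and again with Dox, cells received DMSO, isoproterenol (ISO, 10 nM) or SR-3420 (20 µM) for 3 h. ISO is an agonist of all β-adrenergic receptors, and SR-3420 is a synthetic ligand of ABHD5. The 6 groups held 3 libraries each, named replicates 1 to 3, from experiments that the study describes as independent. All groups come from 1 cell line, so the replicates measure the spread between experiments in that line and not between animals.

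Brown adipocytes are best known for heat production, but they also release factors, often called batokines, that reach blood vessels, sympathetic nerves, immune cells and distant organs. Adrenergic stimulation acts on them along 2 linked routes: cyclic AMP and protein kinase A act on transcription factors that bind cyclic AMP response elements (CRE), and the same kinase frees ABHD5 from perilipin on the lipid droplet, which lets ABHD5 activate the triglyceride lipase ATGL. VEGF-A is a growth factor for endothelial cells, FGF2 binds heparan sulphate and FGF receptors, neuregulin 4 signals through ERBB receptors, and GDF15 is a stress-responsive hormone whose receptor lies in the hindbrain.

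The study's methods name counting over genes, but the deposited table gives a counted length per gene. Among 16542 genes matched to the mm9 annotation, 72.6% had a counted length that differed from their total intron sequence by at most 10%, and 2.27% had one that close to their total exon sequence. The whole gene span was not set against the counted length over these genes. For the 9 members the counted length was shorter than the span, by 1084 (Gdf15) to 7878 bases (Nrg4). The values were therefore read as mainly unspliced RNA, and they measure neither mature message alone nor secreted protein. Total counts ran from 689910 to 1956565 per library with a median of 1145729, and levels are given as CPM, the count over the library size after scaling by TMM factors of 0.768 to 1.13. One library stood apart: in replicate 1 of SR-3420 with Dox the 10 most counted genes took 35.6% of all counts, against 16.3% to 26.5% in the other 17 libraries, and the calls that rest on this library are given with and without it. Abhd5 itself had 41 to 54 counts in DMSO libraries without Dox and 431 to 1211 with Dox. The rescue is an introduced construct and whether it holds introns is not given in the sources used here, so its RNA may enter these counts, and the share of spliced or construct RNA in them was not tested. All 7 adipocyte markers in the table passed the filter on low counts, with summed levels of 2766 to 5932 CPM, and 4 of the 5 brown markers in the table did so. Of these 5, Cidea (8 to 61 counts), Ppargc1a (15 to 716) and Prdm16 (13 to 213) were above 0 in every library, while Ucp1 had 0 to 347 counts and Dio2 had 0 throughout. The brown markers summed to 49.0 to 103 CPM with DMSO, 258 to 375 with ISO and 68.5 to 110 with SR-3420 without Dox. With Dox they summed to 85.4 to 104 CPM with DMSO, 516 to 1115 with ISO and 127 to 250 with SR-3420, and their part in the members' values was not tested. The 6 preadipocyte markers summed to 143 to 167 CPM with DMSO, 104 to 109 with ISO and 136 to 146 with SR-3420 without Dox, and to 153 to 173, 105 to 151 and 126 to 168 with Dox, so ISO and DMSO did not overlap in either condition. The macrophage marker Lyz2 had at most 1 count, and the 6 macrophage markers summed to 4.50 to 20.2 CPM. The 5 endothelial markers in the table summed to 18.3 to 26.8 CPM in the 6 ISO libraries and to 6.80 to 16.2 CPM in the other 12, mostly from Tek (4 to 27 counts), with Tie1 at 0 in every library and Cdh5 at 0 or 1; their part in the results was not tested. In bulk RNA, a larger share of a cell type and more RNA per cell cannot be told apart.

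The promoters of 4 members are shown because the results turn on these genes and they followed 4 different patterns over the groups. Each sequence covers 250 bases before to 50 bases after the transcription start that RefSeq gives in build GRCm38.p6, 5′ to 3′ on the strand of the gene. Capitals mark the CRE half-site TGACG or its reverse complement CGTCA, searched on both strands. The half-site is common, since 20.8% of 32851 mouse promoters of this length held it. The Fgf2 promoter (chr3:37348403-37348702, plus strand, GRCm38.p6) held 2, at 140 and 6 bases before the start, and the promoters of Metrnl (chr11:121702177-121702476, plus strand), Nrg4 (chr9:55283576-55283875, minus strand) and Gdf15 (chr8:70632046-70632345, minus strand, the downstream of 2 starts) held none.
Fgf2: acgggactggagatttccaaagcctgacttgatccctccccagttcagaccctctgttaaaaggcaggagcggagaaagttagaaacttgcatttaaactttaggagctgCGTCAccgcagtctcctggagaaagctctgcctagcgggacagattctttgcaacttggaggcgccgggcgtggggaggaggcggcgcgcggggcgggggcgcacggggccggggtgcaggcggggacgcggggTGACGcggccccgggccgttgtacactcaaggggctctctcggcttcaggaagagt
Metrnl: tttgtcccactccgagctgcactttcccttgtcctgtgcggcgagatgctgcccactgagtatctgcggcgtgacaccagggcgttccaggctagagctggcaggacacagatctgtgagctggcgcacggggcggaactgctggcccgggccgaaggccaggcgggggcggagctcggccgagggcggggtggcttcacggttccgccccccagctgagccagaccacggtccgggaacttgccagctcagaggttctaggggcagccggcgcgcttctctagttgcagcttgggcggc
Nrg4: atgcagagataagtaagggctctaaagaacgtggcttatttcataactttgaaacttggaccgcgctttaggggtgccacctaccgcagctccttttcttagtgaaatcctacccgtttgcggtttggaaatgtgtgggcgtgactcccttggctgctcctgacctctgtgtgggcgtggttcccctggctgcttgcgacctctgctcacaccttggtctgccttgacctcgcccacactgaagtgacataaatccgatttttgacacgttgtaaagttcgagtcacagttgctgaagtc
Gdf15: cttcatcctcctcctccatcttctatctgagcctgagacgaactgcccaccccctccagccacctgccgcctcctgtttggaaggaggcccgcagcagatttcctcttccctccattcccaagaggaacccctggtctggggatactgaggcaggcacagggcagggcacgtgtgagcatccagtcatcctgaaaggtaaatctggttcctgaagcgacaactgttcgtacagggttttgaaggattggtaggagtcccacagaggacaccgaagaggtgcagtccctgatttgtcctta

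All 9 members had a promoter in the RefSeq table, 11 in total. Beside Fgf2, a half-site was found 135 bases before the Il6 start and 209 bases before the downstream start of Vegfa, and in no other member. The full CRE TGACGTCA, held by 1.79% of promoters, was in none of the 11, and neither was the PPAR-type direct repeat, AGGTCA repeated after 1 base of any kind, held by 0.0396%, nor the ATF4-type composite TGATGNAA, held by 3.97%. The hypoxia core ACGTG, which overlaps palindromic forms of itself and was found in 19.6% of promoters, was present in Nrg4, in Bmp8b, in the shown Gdf15 promoter and at the downstream Vegfa start. Matched to the mm9 genome, the promoter starts of Fgf2, Metrnl and Nrg4 coincided with the first base of the gene in the deposited table, whereas the shown Gdf15 start lay 460 bases before it. Such matches describe letters in a window and are not evidence of binding.

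**Figure D1:**
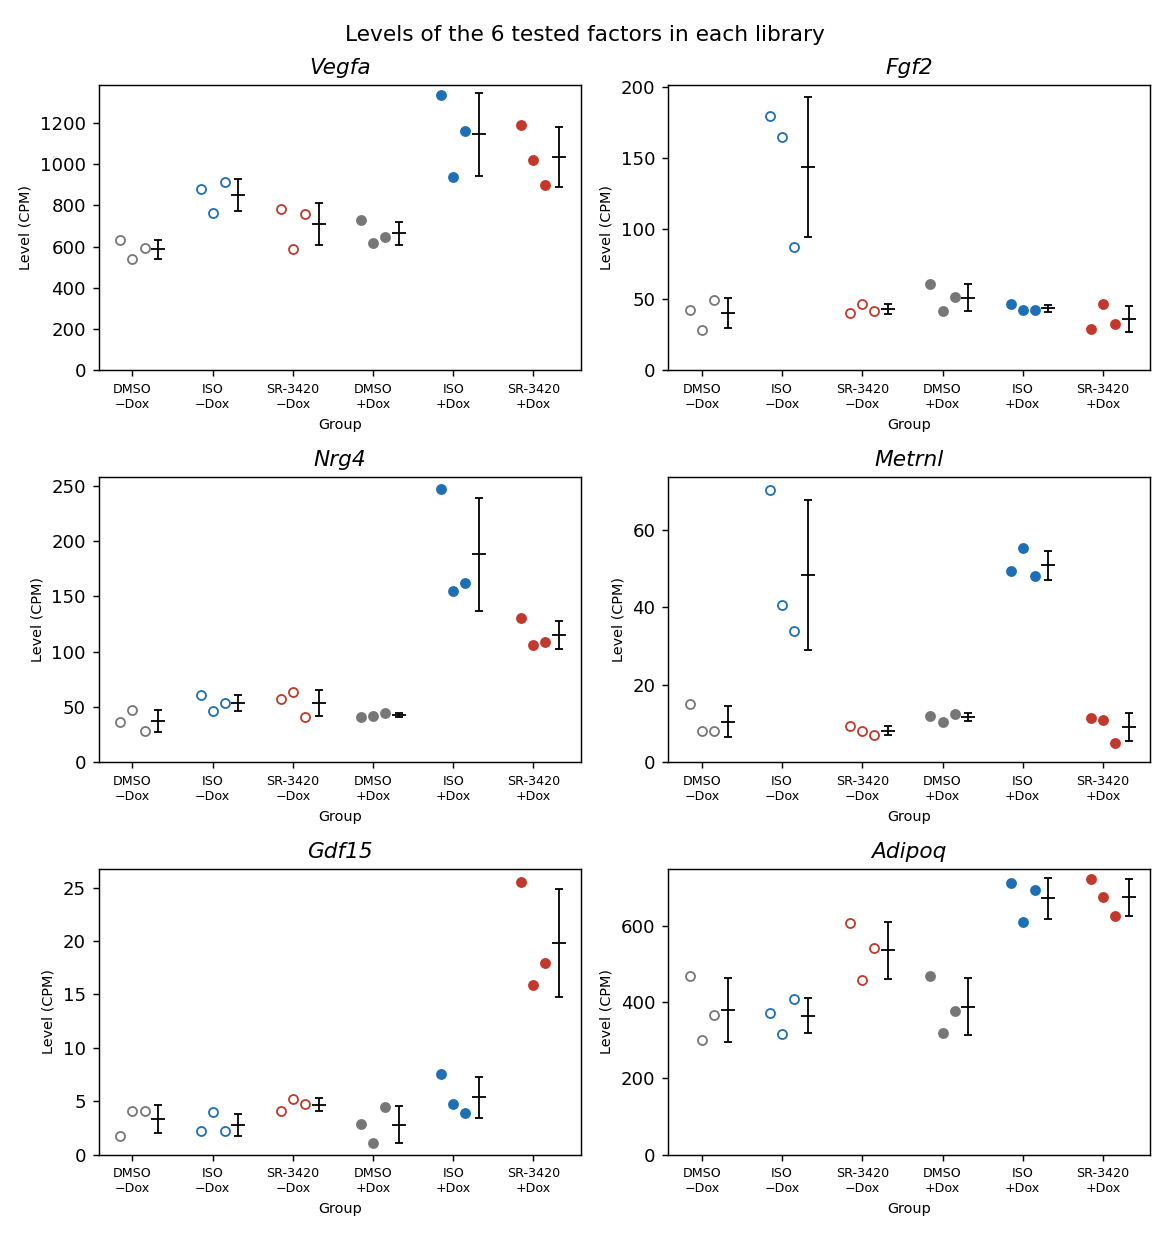
Level (CPM, linear axes from 0) of the 6 tested factors in each of the 18 libraries, with open points for cells without Dox and filled points for cells with Dox; black bars are the mean ± SD of 3 libraries. Fgf2 stands out with ISO without Dox (87.1 to 179 CPM), Metrnl with ISO in both conditions, Nrg4 with ISO or SR-3420 with Dox, and Gdf15 with SR-3420 with Dox (15.9 to 25.5 CPM).

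Per kilobase of counted sequence, Vegfa and Adipoq were by far the most transcribed members. Group means of Vegfa were 55.9 to 109 CPM per kb and those of Adipoq 36.6 to 67.7 CPM per kb, against a median over all tested genes of 2.07 to 2.12 CPM per kb. Vegfa ranked first and Adipoq ranked next in every group. Gdf15 followed in the DMSO groups with 2.86 CPM per kb without Dox and 2.42 with Dox, although its counted sequence spans 1158 bases and its counts were few. Metrnl (1.05 and 1.16 CPM per kb in DMSO without and with Dox), Fgf2 (0.735 and 0.935) and Nrg4 (0.675 and 0.768) lay below the median of tested genes in both DMSO groups. Treatment brought each of these 3 above that median in at least one group: Metrnl reached 4.83 and 5.09 CPM per kb with ISO without and with Dox, Nrg4 reached 3.38 with ISO and Dox, and Fgf2 reached 2.62 with ISO without Dox.

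**Figure D2:**
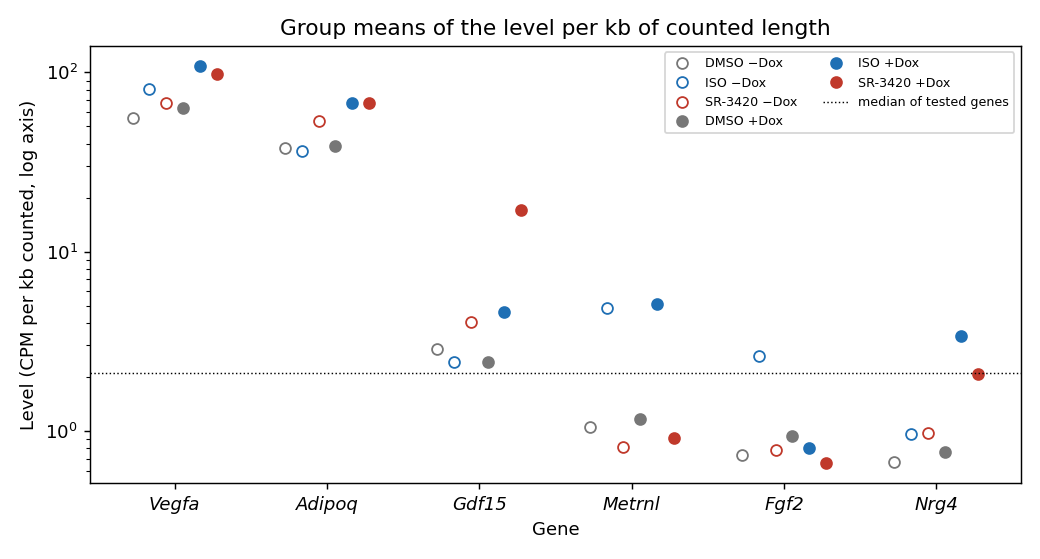
Group means (n = 3) of the level in CPM per kb of counted sequence on a log axis for the 6 tested factors; open points are groups without Dox, filled points groups with Dox, and the dotted line is the median of the tested genes. Vegfa (55.9 to 109) and Adipoq (36.6 to 67.7) lie far above the other 4 in every group.

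Tests were made in 1 edgeR quasi-likelihood fit of all 18 libraries, with Benjamini-Hochberg adjustment over the 10178 genes that passed the filter. A gene was called when its adjusted p was at most 0.05 and its log2 fold change was at least 1 in size. ISO without Dox called 2 members, Fgf2 and Metrnl, both higher, where 5.81% of all tested genes were called higher and 5.08% lower. ISO with Dox also called 2 higher, Nrg4 and Metrnl, against 6.22% of tested genes higher and 6.89% lower. SR-3420 without Dox called none of the 6, where 0.236% of tested genes were called higher and 0.0295% lower. At an unadjusted p under 0.05 this comparison held 2 members, Nrg4 and Adipoq, and neither DESeq2 nor limma-voom passed any member at an adjusted p of 0.05. A fit with the replicate number as a block passed Adipoq, below the fold limit, and called 0.403% of tested genes against 0.265% without the block. That 0.265% was 0.153% without replicate 1 of DMSO without Dox. SR-3420 with Dox called Nrg4 higher, where 2.1% of tested genes were called higher and 1% lower. Gdf15 passed the filter through its 3 libraries of SR-3420 with Dox alone, so it had to be high in that group to be tested at all. Gdf15 is therefore left out of the count, and its values there are given as a description.

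The comparisons between treatments and between Dox conditions split the members further. ISO set against SR-3420 called Fgf2 and Metrnl higher without Dox, where 4.95% of tested genes were called higher and 5.65% lower. With Dox it called Metrnl higher, with 3.49% of tested genes called higher and 3.36% lower, and Gdf15 is again left out of the count. Dox alone, compared in DMSO, called none of the 6 members (0.874% of tested genes were called higher and 0.0197% lower), and none had an unadjusted p under 0.05 or an adjusted p of 0.05 or less in DESeq2 or limma-voom. The ISO response differed between cells with and without Dox for 2 members at the same thresholds: Nrg4 was called with a larger response with Dox, as 0.894% of tested genes were, and Fgf2 with a smaller one, as 0.413% were. The SR-3420 response was called different for no member (0.452% of tested genes were called higher and 0.138% lower). In all 0.59% were called, which fell to between 0.259% and 0.359% without any of 6 single libraries. Nrg4 had an unadjusted p under 0.05, and DESeq2 and limma-voom again passed none. A fit with the replicate number as a block passed Nrg4, below the fold limit (edgeR adjusted p = 0.0457). Not all same-numbered libraries of these groups deviated together. The same DMSO libraries serve both treatments in each Dox condition, so the ISO and SR-3420 folds share their controls.

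By the adjusted p alone, with no limit on the fold, Vegfa and Adipoq joined in. ISO passed 3 of the 6 members without Dox (28% of tested genes passed) and 4 with Dox (32.5%). SR-3420 passed 0 without Dox (0.766%) and with Dox 3, Vegfa, Nrg4 and Adipoq (9.9%), with Gdf15 left out as above. ISO against SR-3420 passed 3 without Dox (28.3%) and with Dox 2, Nrg4 and Metrnl (19.8%), Gdf15 again left out, and Dox in DMSO passed 0 (1.18%). The ISO response differed by this measure for 3 members (2.18%) and the SR-3420 response for 0 (0.757%).

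**Figure D3:**
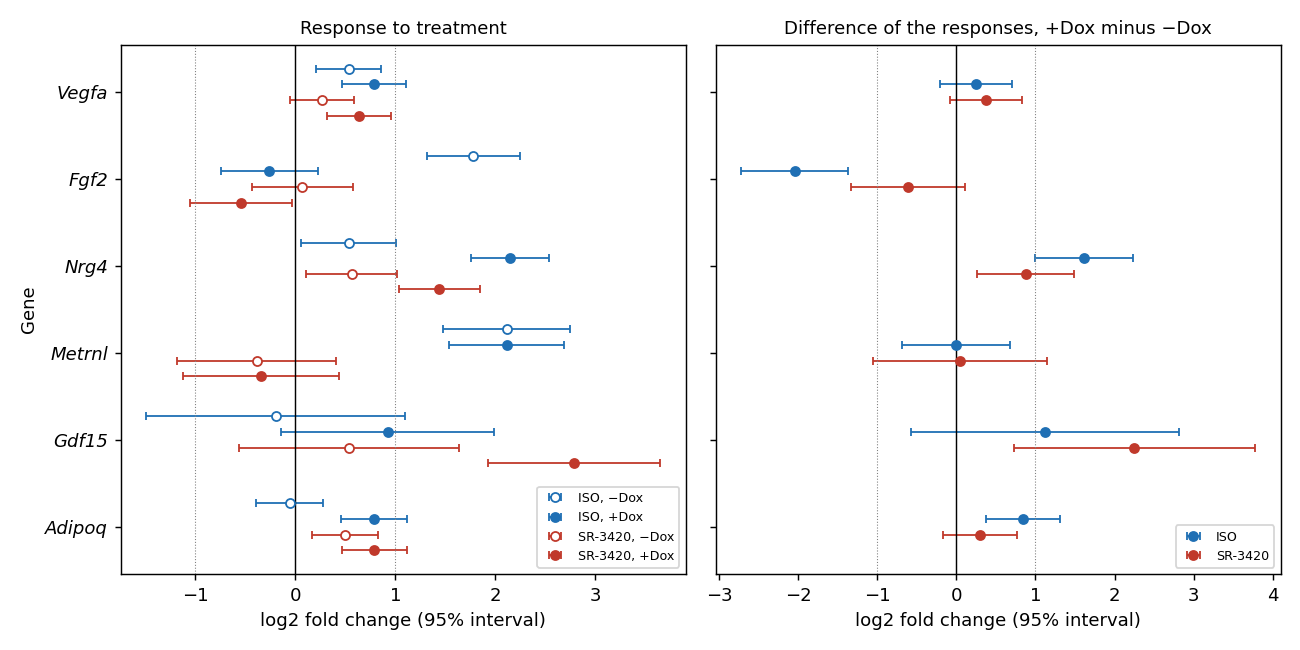
Left, log2 fold change against DMSO of the 6 tested factors with 95% intervals of the edgeR fit (ISO blue, SR-3420 red, open without Dox, filled with Dox); right, the difference of each response with Dox minus without Dox. Dotted lines mark a log2 fold change of 1 in size. The interval of the ISO difference lies wholly below 0 for Fgf2 (-2.72 to -1.37) and wholly above 0 for Nrg4 (0.99 to 2.23). The plotted interval of the Metrnl ISO difference is narrower than the SEs of its 2 responses allow. Gdf15 was tested only because of its 3 libraries of SR-3420 with Dox, so its intervals from that group are no test.

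Fgf2 rose with ISO in cells without Dox, and its response with Dox was smaller by the test of the difference. FGF2 is a broadly mitogenic and angiogenic ligand that lacks a classical signal peptide. The gene (NM_008006, mm9 chromosome 3, 37247575 to 37303752, plus strand) had 54889 counted bases and shares 1088 bases with the lincRNA Gm12541 on the other strand. Without Dox its counts were 48, 21 and 49 with DMSO, 166, 166 and 116 with ISO, and 70, 81 and 53 with SR-3420. With Dox they were 126, 40 and 46 with DMSO, 56, 54 and 44 with ISO, and 33, 47 and 33 with SR-3420. In CPM all 3 libraries of ISO without Dox lay above the other 15, with the lowest of them, replicate 3, at 87.1 and the highest of the rest at 60.7.

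The mean Fgf2 level was 40.3 ± 10.8 CPM (SD, n = 3) with DMSO and 144 ± 49.6 with ISO without Dox, which is 1.78 ± 0.23 on the log2 scale (SE, edgeR quasi-likelihood adjusted p = 8.14e-07). With Dox, the means were 51.3 ± 9.51 with DMSO and 43.9 ± 2.45 with ISO, and the log2 fold change was -0.26 (95% interval -0.75 to 0.23, edgeR adjusted p = 0.430). The difference of the 2 responses was -2.04 ± 0.33 on the log2 scale (edgeR adjusted p = 0.000507), and it kept its sign and stayed past the threshold in all 21 alternatives, from -2.31 to -1.85. SR-3420 left Fgf2 near its DMSO level without Dox, with a log2 fold change of 0.07 (95% interval -0.44 to 0.58, edgeR adjusted p = 0.985). With Dox the SR-3420 value was -0.54 (edgeR adjusted p = 0.184). ISO exceeded SR-3420 without Dox by 1.71 ± 0.21 on the log2 scale (edgeR adjusted p = 2.99e-07).

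Vegfa, the main growth factor of endothelial cells, rose with ISO in both Dox conditions and with SR-3420 in cells with Dox, in each case by less than a doubling of its level. The gene (NM_001287057, mm9 chromosome 17, 46153943 to 46169326, minus strand) had 10518 counted bases. Counts without Dox were 710, 397 and 583 with DMSO, 813, 770 and 1216 with ISO, and 1344, 1016 and 963 with SR-3420. With Dox the counts were 1509, 593 and 577 with DMSO, 1600, 1188 and 1208 with ISO, and 1352, 1026 and 899 with SR-3420. In CPM the ISO libraries lay above the DMSO libraries in both conditions, the SR-3420 libraries did so with Dox, and SR-3420 and DMSO overlapped without Dox.

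Mean Vegfa levels ran in this order: 1144 ± 200 CPM (SD, n = 3) with ISO and Dox, 1035 ± 146 with SR-3420 and Dox, 852 ± 78.3 with ISO, 709 ± 103 with SR-3420, 664 ± 56.3 with DMSO and Dox, and 588 ± 46.0 with DMSO without Dox. Each neighbour in that order overlapped the next. The ISO log2 fold change was 0.53 ± 0.16 (SE, edgeR adjusted p = 0.0120) without Dox and 0.78 ± 0.16 (edgeR adjusted p = 0.000296) with Dox. That without Dox missed the threshold when counts were scaled by library totals alone (0.37, adjusted p = 0.130). The SR-3420 log2 fold change was 0.27 (95% interval -0.05 to 0.59, edgeR adjusted p = 0.686) without Dox. With Dox it was 0.64 ± 0.16 (edgeR adjusted p = 0.00715), but 0.53 (adjusted p = 0.0556) without the library that stood apart and 0.45 (adjusted p = 0.105) with library totals alone. The responses with and without Dox were not shown to differ, with differences of 0.25 (95% interval -0.20 to 0.70) for ISO and 0.37 (-0.08 to 0.82) for SR-3420.

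Nrg4 had its larger ISO response in cells with Dox, whereas that of Fgf2 was in cells without Dox. Neuregulin 4 is an EGF-family ligand released by brown fat that is known for effects on the liver and on neurites. The gene (NM_032002, mm9 chromosome 9, 55068029 to 55131432, minus strand) had 55526 counted bases and shares 4212 bases with Fbxo22 on the other strand, and since the counting is not stated to use strand, reads there cannot be assigned to either. Counts without Dox were 41, 35 and 28 with DMSO, 56, 47 and 71 with ISO, and 98, 110 and 52 with SR-3420. With Dox they were 86, 40 and 40 with DMSO, 296, 197 and 168 with ISO, and 148, 107 and 109 with SR-3420. In CPM the 6 treated libraries with Dox lay above all other 12, and all ISO libraries with Dox lay above all SR-3420 libraries with Dox.

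With Dox, Nrg4 was at 42.7 ± 1.98 CPM (SD, n = 3) with DMSO, 188 ± 51.1 with ISO and 115 ± 13.0 with SR-3420. The log2 fold change was 2.14 ± 0.19 (SE, edgeR adjusted p = 6.26e-10) for ISO and 1.44 ± 0.20 (edgeR adjusted p = 8.61e-06) for SR-3420, the latter 1.34 (adjusted p = 0.000179) without the library that stood apart. ISO exceeded SR-3420 by 0.70 ± 0.17 (edgeR adjusted p = 0.00365), a difference that missed the threshold without replicate 1 of ISO with Dox (0.46, adjusted p = 0.0680) and was 0.82 (adjusted p = 0.00425) without the library that stood apart. Fbxo22 was at 234 ± 39.1 CPM with DMSO, 315 ± 51.7 with ISO and 247 ± 26.7 with SR-3420 in the same groups.

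Without Dox, Nrg4 was at 37.5 ± 9.64 CPM with DMSO, 53.5 ± 6.96 with ISO and 53.9 ± 11.8 with SR-3420. Neither log2 fold change passed the adjusted threshold, at 0.53 (95% interval 0.06 to 1.01, edgeR adjusted p = 0.0850) for ISO and 0.56 (0.11 to 1.02, adjusted p = 0.383) for SR-3420. The ISO value passed it without replicate 2 of DMSO without Dox (0.71, adjusted p = 0.0419). The ISO response with Dox exceeded that without by 1.61 ± 0.30 on the log2 scale (edgeR adjusted p = 0.00317), which stayed past the threshold in all 21 alternatives (1.36 to 1.77). For SR-3420 the same difference was 0.88 (95% interval 0.26 to 1.49, edgeR adjusted p = 0.189). With the replicate number as a block its edgeR adjusted p was 0.0457.

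Metrnl rose with ISO with and without Dox, while no change with SR-3420 passed the test. Meteorin-like is a secreted protein of muscle and fat that is linked to the recruitment of eosinophils and to beige fat. The gene (NM_144797, mm9 chromosome 11, 121563741 to 121578703, plus strand) had 9985 counted bases. Without Dox its counts were 17, 6 and 8 with DMSO, 65, 41 and 45 with ISO, and 16, 14 and 9 with SR-3420. With Dox they were 25, 10 and 11 with DMSO, 59, 70 and 50 with ISO, and 13, 11 and 5 with SR-3420. In CPM the 6 ISO libraries (33.8 to 70.2) lay above the other 12 (4.99 to 15.1).

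Without Dox, Metrnl was at 10.5 ± 4.03 CPM (SD, n = 3) with DMSO and 48.2 ± 19.4 with ISO, which is 2.12 ± 0.31 on the log2 scale (SE, edgeR adjusted p = 6.79e-06). With Dox it was at 11.6 ± 1.04 and 50.8 ± 3.78, or 2.11 ± 0.28 on the log2 scale (edgeR adjusted p = 1.12e-06). The difference of the ISO responses was -0.0021 on the log2 scale (edgeR adjusted p = 0.999), and its sign turned in 12 of 20 alternatives. No interval is given, since the SE was derived from the value and its test statistic and came out too small near 0. With SEs of 0.31 and 0.28 for the 2 responses, a moderate difference could not be seen. SR-3420 gave -0.39 (95% interval -1.18 to 0.40, edgeR adjusted p = 0.863) without Dox and -0.34 (-1.12 to 0.44, adjusted p = 0.653) with Dox. ISO exceeded SR-3420 by 2.50 ± 0.29 (edgeR adjusted p = 1.25e-07) without Dox and by 2.45 ± 0.31 (adjusted p = 7.98e-07) with Dox, the latter 2.68 without the library that stood apart.

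Gdf15 was high in 1 group, SR-3420 with Dox. The gene (NM_011819, mm9 chromosome 8, 73153293 to 73155534, minus strand) had 1158 counted bases, which equals its span less its annotated exons, and 133 counts over all 18 libraries. Without Dox its counts were 2, 3 and 4 with DMSO, 2, 4 and 3 with ISO, and 7, 9 and 6 with SR-3420. With Dox they were 6, 1 and 4 with DMSO, 9, 6 and 4 with ISO, and 29, 16 and 18 with SR-3420. In CPM the 3 libraries of SR-3420 with Dox (15.9 to 25.5) lay above the other 15, whose highest value was 7.50.

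The mean Gdf15 level was 19.8 ± 5.04 CPM (SD, n = 3) with SR-3420 and Dox against 2.81 ± 1.73 with DMSO and Dox, which is 2.79 on the log2 scale of the edgeR fit. No SE, interval or p is given, since the gene entered the tests only through these 3 libraries. Replicate 1, the library that stood apart, had the most counts, and without it the value was 2.55. ISO with Dox gave 0.92 (95% interval -0.14 to 1.99, edgeR adjusted p = 0.178). ISO lay below SR-3420 with Dox by a log2 fold change of -1.86, or -1.61 without that library, also with no SE or p given. Without Dox the SR-3420 value was 0.54 (95% interval -0.56 to 1.64, edgeR adjusted p = 0.862). The difference of the SR-3420 responses was 2.25, likewise a description with no interval given, since it rests on the same 3 libraries.

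Adiponectin, the main hormone of mature adipocytes and also 1 of the adipocyte markers, rose with either treatment in cells with Dox. Adipoq (NM_009605, mm9 chromosome 16, 23146609 to 23158041, plus strand) had 9970 counted bases. Counts without Dox were 527, 222 and 361 with DMSO, 343, 320 and 543 with ISO, and 1047, 789 and 692 with SR-3420. With Dox the counts were 972, 306 and 336 with DMSO, 856, 777 and 722 with ISO, and 822, 680 and 628 with SR-3420. In CPM the 6 treated libraries with Dox (612 to 722) lay above the other 12, of which the highest was 608 in SR-3420 without Dox.

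With Dox, Adipoq was at 388 ± 75.3 CPM (SD, n = 3) with DMSO, 674 ± 54.1 with ISO and 675 ± 47.6 with SR-3420. The log2 fold change was 0.79 ± 0.16 for both ISO (edgeR adjusted p = 0.000356) and SR-3420 (adjusted p = 0.00119), the latter 0.74 (adjusted p = 0.00771) without the library that stood apart, and their difference was -0.0043 (95% interval -0.33 to 0.32). Without Dox, the means were 379 ± 84.2 with DMSO, 365 ± 45.4 with ISO and 536 ± 75.0 with SR-3420. The ISO value was -0.06 (95% interval -0.39 to 0.28, edgeR adjusted p = 0.826) and the SR-3420 value 0.49 (0.16 to 0.82, adjusted p = 0.225). With the replicate number as a block the SR-3420 value was 0.50 and passed the adjusted threshold (edgeR adjusted p = 0.00640). ISO lay below SR-3420 without Dox by a log2 fold change of -0.55 ± 0.16 (edgeR adjusted p = 0.0103), which missed the threshold without replicate 2 of ISO or replicate 1 of SR-3420 (both -0.45, adjusted p = 0.0633 and 0.0643).

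The ISO response of Adipoq was larger with Dox than without by 0.85 ± 0.23 (edgeR adjusted p = 0.0447). It did not reach the fold limit, and of 21 alternatives 11 took its adjusted p above 0.05. These came with upper-quartile factors, with library totals alone, in a fit of only the 4 groups of the comparison, and without any of 8 single libraries (replicates 1 and 3 of DMSO without Dox, 1 and 2 of ISO without Dox, 2 and 3 of DMSO with Dox, and 1 and 3 of ISO with Dox). The adjusted p over the alternatives ran from 0.000507 to 0.186 and the value from 0.66 to 1.01. Without Dox, the summed adipocyte markers, which include Adipoq, ran from 2766 to 3327 CPM with DMSO, 3764 to 3948 with ISO and 3995 to 4202 with SR-3420. With Dox they ran from 3254 to 3733 with DMSO, 5818 to 5932 with ISO and 4471 to 5781 with SR-3420. Their part in the Adipoq values was not tested.

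Counts of Il6, Lif and Bmp8b were too few for a test: fewer than 3 libraries reached the limit of 8.73 CPM that corresponds to 10 counts in a library of median size. Il6, a cytokine that brown and white adipocytes release under adrenergic stimulation, had 77 counts in all. The gene (NM_031168, mm9 chromosome 5, 30339701 to 30346508, plus strand) had 6, 3 and 1 counts with DMSO, 8, 16 and 6 with ISO, and 2, 6 and 1 with SR-3420 without Dox. With Dox its counts were 2, 2 and 1 with DMSO, 2, 11 and 6 with ISO, and 1, 2 and 1 with SR-3420. The 2 highest libraries were ISO libraries, replicate 2 in each Dox condition, and the ISO and DMSO groups overlapped in both conditions. When the filter was dropped and 15973 genes were tested, the ISO log2 fold change of Il6 was 1.41 ± 0.61 (SE, edgeR adjusted p = 0.0950) without Dox and 2.00 ± 0.75 (adjusted p = 0.0384) with Dox, values that rest on 19 to 30 counts in an ISO group. The latter would be a call, as would ISO against SR-3420 without Dox (2.23 ± 0.61, edgeR adjusted p = 0.00254), where 9 counts stood in the SR-3420 group.

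Lif and Bmp8b were at the limit of detection. Leukaemia inhibitory factor (Lif, NM_008501, mm9 chromosome 11, 4157571 to 4172517, plus strand), which signals through the same gp130 subunit as IL-6, had 0 to 2 counts per library and 14 in all. Bmp8b, described as a thermogenic factor of brown fat, (NM_007559, mm9 chromosome 4, 122782408 to 122803334, plus strand) had 8 counts in all: 3 in replicate 3 of ISO without Dox, 1 in replicate 2 of SR-3420 without Dox and 2 in each of replicates 1 and 2 of DMSO with Dox. In the 3 groups with no Bmp8b count, a count of 0 allows a level of up to 1.15 CPM (DMSO without Dox), 0.800 CPM (ISO with Dox) and 0.848 CPM (SR-3420 with Dox) at 3 counts over the group, for counting error only. No direction can be read for either gene at this depth. Bmp8b also shares 1686 bases with Oxct2b on its own strand, so its few counts are uncertain in origin.

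**Figure D4:**
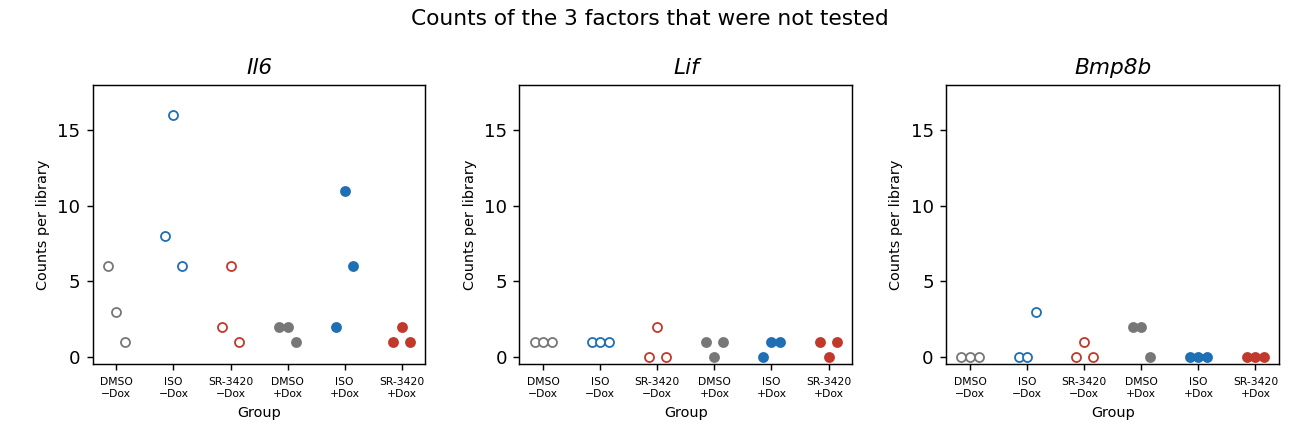
Counts per library of Il6, Lif and Bmp8b in the 6 groups (3 libraries each, open without Dox, filled with Dox; linear axes with the same range). Il6 reached 16 and 11 counts in single ISO libraries, and Lif and Bmp8b stayed at 0 to 3 counts.

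The genes whose levels over the 18 libraries were most like each member were named by Pearson's r of log2 CPM, as a description, since the libraries share groups and controls. Vegfa was most like Ppargc1b (r = 0.96), Irs2 (0.95) and Idh3a (0.95). Fgf2 was most like Il1r1 (0.90), Cald1 (0.87) and Wdr74 (0.87), and Gdf15 most like Trib3 (0.90), Ddt (0.88) and Plekhm2 (0.87). Nrg4 was closest to Agpat9 (0.97), Aifm2 (0.96) and Hsd17b12 (0.96), although Aifm2 shares bases with H2afy2. Metrnl was closest to Tdrd9, Acsl4 and Arl5a (0.96 each). Adipoq was closest to Lctl (0.96), which shares bases with Zwilch, to Lgals12 (0.95) and to Dlat (0.94).

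Other secreted factors gave the members a setting. A list of 96 other angiogenic, neurotrophic, EGF-family, TGF-beta-family, endocrine and cytokine genes had 92 in the table and 39 tested. Without Dox, ISO called 5 of the 39 higher and 5 lower, and with Dox 2 higher and 4 lower, with median log2 fold changes of -0.18 and -0.24 beside -0.0105 and -0.0195 over all tested genes. These are 25.6% and 15.4% of the list, where 10.9% and 13.1% of all tested genes were called. SR-3420 called none without Dox (6 had an unadjusted p under 0.05, and 1 passed the adjusted p in the edgeR fit) and 1 in each direction with Dox (5.13% of the list, against 3.1% of all tested genes). Clcf1, a cytokine of the family that includes Lif, rose with ISO by 1.94 ± 0.19 on the log2 scale (SE, edgeR adjusted p = 1.19e-08) without Dox and 1.01 ± 0.18 (adjusted p = 8.30e-05) with Dox. The latter was just past the fold limit and fell below it in 6 alternatives, 3 of them the loss of 1 library (replicates 2 or 3 of DMSO with Dox or replicate 1 of ISO with Dox, 0.93 to 0.99). Rbp4, the retinol carrier, rose by 1.09 ± 0.16 (adjusted p = 5.32e-06) and 1.50 ± 0.16 (adjusted p = 1.50e-08), the first of them 0.92 with library totals alone and 0.95 without replicate 3 of ISO without Dox. Figf, which encodes the lymphangiogenic ligand VEGF-D, was lower in both, at -1.58 ± 0.17 (edgeR adjusted p = 6.27e-08) and -1.68 ± 0.17 (adjusted p = 1.08e-08).

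SR-3420 with Dox called Kitl, the ligand of the KIT receptor, lower, at -1.07 ± 0.31 on the log2 scale (edgeR adjusted p = 0.0235). The Kitl value missed the adjusted threshold without replicate 1 (-1.04, adjusted p = 0.0861) or 2 (-0.96, adjusted p = 0.0794) of DMSO with Dox and without replicate 2 of SR-3420 with Dox (-0.81, adjusted p = 0.138). Without the library that stood apart, Kitl was at -1.22 and still called. With ISO and Dox it was at -1.04 ± 0.30 (edgeR adjusted p = 0.00864). Angpt1, a ligand of the endothelial receptor TIE2, was lower with ISO than with SR-3420 with Dox at -1.15 ± 0.18 (edgeR adjusted p = 2.31e-05). Without the library that stood apart the Angpt1 value was -1.18, and without Dox it was -0.55 ± 0.17 (edgeR adjusted p = 0.0152). Angptl4, an inhibitor of lipoprotein lipase, was lower with ISO than with SR-3420 without Dox at -1.89 ± 0.28 (edgeR adjusted p = 5.10e-06) and with Dox at -0.83 ± 0.26 (adjusted p = 0.0217).

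Receptors and co-receptors of the members' families were measured in the same cells, with 30 listed and 23 tested. ISO called 4 higher and 1 lower without Dox, and 4 higher and 2 lower with Dox, with medians of -0.07 and -0.14 on the log2 scale beside -0.0105 and -0.0195 over all tested genes. The calls were 21.7% and 26.1% of the list, against 10.9% and 13.1% of all tested genes. SR-3420 called none without Dox (3 had an unadjusted p under 0.05, and 2 passed the adjusted p in the edgeR fit) and 3 higher with Dox (13% of the list, against 3.1%). Acvr1b, a type I receptor for activins, rose with ISO by 2.26 ± 0.15 (SE, edgeR adjusted p = 1.95e-12) without Dox and 1.79 ± 0.14 (adjusted p = 7.04e-11) with Dox. Il6st, the gp130 subunit shared by the receptors of IL-6 and LIF, rose with ISO by 1.17 ± 0.17 (edgeR adjusted p = 5.56e-06) without Dox and 1.22 ± 0.17 (adjusted p = 1.50e-06) with Dox. Klb, the co-receptor for FGF21, rose with ISO by 1.65 ± 0.28 (edgeR adjusted p = 4.96e-05) without Dox and 2.20 ± 0.24 (adjusted p = 2.32e-08) with Dox. For SR-3420 the Klb value was 0.79 ± 0.29 (edgeR adjusted p = 0.322) without Dox and 1.53 ± 0.25 (adjusted p = 9.70e-05) with Dox. Adipor2, a receptor for adiponectin, passed the adjusted threshold in all 4 comparisons with DMSO. With ISO it rose by 0.80 ± 0.14 (edgeR adjusted p = 0.000111) without Dox and 1.73 ± 0.13 (adjusted p = 3.99e-11) with Dox, and with SR-3420 by 0.93 ± 0.14 (adjusted p = 0.000273) and 1.11 ± 0.14 (adjusted p = 1.87e-06), the last 0.93 with library totals alone. Without the library that stood apart the SR-3420 values with Dox were 1.54 for Klb and 1.12 for Adipor2.

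The FGF2 receptor Fgfr2 moved opposite to its ligand in the ISO comparison without Dox. Its counts without Dox were 62, 30 and 44 with DMSO and 17, 11 and 19 with ISO, and with Dox 90, 47 and 36 with DMSO and 58, 40 and 56 with ISO. The log2 fold change was -1.71 ± 0.25 (SE, edgeR adjusted p = 8.62e-06) without Dox, against 0.0013 ± 0.20 (adjusted p = 0.997) with Dox, and the difference with Dox minus without was 1.71 ± 0.33 (edgeR adjusted p = 0.00349). SR-3420 with Dox called Fgfr2 higher by 1.04 ± 0.19 (edgeR adjusted p = 0.000370), and 1.04 without the library that stood apart. That Fgfr2 value lay close to the fold limit and fell below it with upper-quartile factors (0.96), with library totals alone (0.84), and without replicate 3 of DMSO with Dox (0.98) or replicate 3 of SR-3420 with Dox (0.90). Fgfr1 was lower with ISO than with SR-3420 without Dox at -1.03 ± 0.12 (edgeR adjusted p = 1.55e-07), or -0.99 without replicate 3 of ISO without Dox. With Dox that Fgfr1 value was -0.35 ± 0.12 (edgeR adjusted p = 0.0363).

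**Figure D5:**
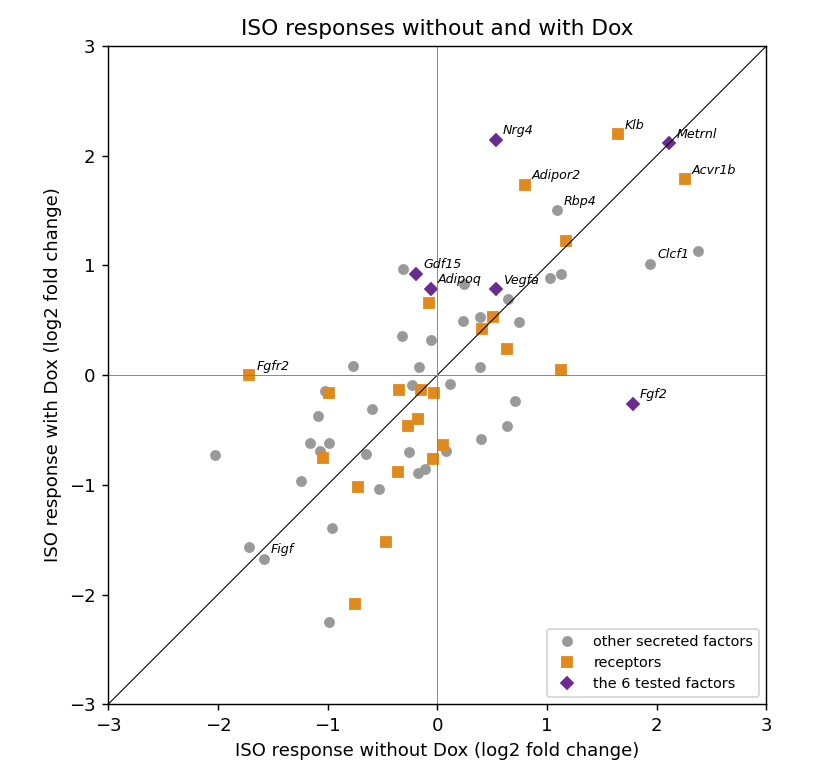
ISO response (log2 fold change against DMSO) without Dox on the x axis and with Dox on the y axis for the 6 tested factors, 39 other secreted factors and 23 receptors, with the line of equal responses; each axis has its own DMSO libraries. Fgf2 (1.78 and -0.26) and Fgfr2 lie off the line to the right and left, Nrg4 (0.53 and 2.14) lies above it and Metrnl (2.12 and 2.11) on it.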

How the data were processed

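Reads of 18 RNA-seq libraries (6 groups of 3) were analysed. The authors deposited raw whole-number counts per gene, made by aligning reads to mm9 with STAR 2.4.2a, keeping 1 read per position and length with HOMER and counting with iRNA-seq; strand use was not given in the sources used here. All 17672 rows name a gene and all columns matched a sample. The members and gene lists were chosen with earlier results of these data known.

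Counts were tested with edgeR 4.0.16 in R 4.3.3 (quasi-likelihood, TMM factors, 6 group means, 9 contrasts); filterByExpr kept 10178 genes (3 libraries above the CPM equal to 10 counts at the median total). Benjamini-Hochberg adjustment ran over all of them. The script was tested on simulated data. Alternatives used DESeq2 1.42.0, limma 3.58.1 (voom), other scaling factors and filters, a replicate block (in 4 of 9 comparisons all same-numbered pairs deviated together, r above 0.1), fewer groups and leaving out each library. All members are named; of each list, the 3 called genes with the smallest p per contrast, except 1 gene not reported here; of likeness, the 3 highest r. Promoters came from RefSeq (GRCm38.p6), and intervals cover 95%. Totals of 689910 to 1956565 counts limit genes under about 10 counts. P-values measure spread between experiments in 1 line.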

Additional observations from a re-analysis of the deposited data

Results flagged for a closer look

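The ISO response differed between cells with and without Dox, by the interaction term of the edgeR fit with adjustment over all tested genes, for 3 members. The difference, with Dox minus without, was -2.04 ± 0.33 (SE, adjusted p = 0.000507) for Fgf2, 1.61 ± 0.30 (adjusted p = 0.00317) for Nrg4 and 0.85 ± 0.23 (adjusted p = 0.0447) for Adipoq. The Adipoq value lost the threshold in 11 of 21 alternatives, whereas those of Fgf2 and Nrg4 kept it in all 21. In the lists it was 1.71 (adjusted p = 0.00349) for Fgfr2, 0.82 ± 0.17 (adjusted p = 0.00671) for Fgfr1, 0.94 ± 0.20 (adjusted p = 0.00708) for Adipor2 and 0.85 ± 0.20 (adjusted p = 0.0182) for Nampt, which was named after its value was seen. Fgfr1 had 111 to 160 counts with ISO against 189 to 271 with DMSO without Dox, and 186 to 284 against 208 to 478 with Dox. The depth of these libraries differed within groups, so the CPM means bear the comparison: 245 ± 10.8 CPM with DMSO and 123 ± 5.69 with ISO without Dox, and 230 ± 4.45 with DMSO and 204 ± 22.9 with ISO with Dox.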

How the results depend on the processing

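Of 864 alternative values of 54 member results, 799 kept their direction and side of the adjusted threshold, 17 lost it, 4 passed it and 44 changed sign, the last in 11 results whose adjusted p was above 0.05. Requiring at least 10 counts in every library removed Gdf15 and Metrnl, so members called fell from 2 to 1 for ISO without Dox, ISO with Dox and ISO against SR-3420 without Dox. With Gdf15 left out of the count, Nrg4 stayed called for SR-3420 with Dox. For ISO against SR-3420 with Dox, where Metrnl had been called, the count fell to 0. Without a filter it rose from 2 to 3 for ISO with Dox and for ISO against SR-3420 without Dox, with Il6 the added call, and it also rose to 3 for ISO with Dox without replicate 2 of DMSO with Dox and for the ISO difference without replicate 1 of DMSO with Dox. Library totals alone shifted the median log2 fold change of all genes to -0.19 for ISO without Dox, -0.16 for ISO with Dox, -0.21 for SR-3420 with Dox and -0.12 for ISO against SR-3420 without Dox, and to -0.14 for the SR-3420 difference. Genes called higher then were 411 of 1244 (591 of 1108 with TMM), 489 of 1464 (633 of 1334), 125 of 355 (214 of 316) and 394 of 1179 (504 of 1079), and 16 of 41 (46 of 60) for the SR-3420 difference and 94 of 113 (91 of 133) for the ISO difference. Upper-quartile factors gave a median of -0.14 for ISO with Dox, with 511 of 1446 higher, 179 of 311 for SR-3420 with Dox, 72 of 130 for the ISO difference and 37 of 66 for the SR-3420 difference.

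Signs changed as follows. For Adipoq, ISO against SR-3420 with Dox was 0.0027 with RLE factors and with DESeq2, 0.046 with library totals, 0.026 without a filter and 0.0042 with only the groups compared, and Dox in DMSO was -0.054 with library totals. For Metrnl, the ISO difference was 0.0051 with RLE factors, 0.016 with library totals, 0.053 with limma-voom and 0.0088 with only the groups compared, and the SR-3420 difference was -0.017 with upper-quartile factors, -0.11 with library totals and -0.037 with limma-voom. Leaving out single libraries gave -0.55 to 0.022 (Gdf15) and -0.19 to 0.12 (Adipoq) for ISO without Dox, -0.093 to 0.23 (Fgf2) and -0.57 to 0.0098 (Metrnl) for SR-3420 without Dox, -0.18 to 0.11 (Nrg4, without Dox) and -0.054 to 0.084 (Adipoq, with Dox) for ISO against SR-3420, -0.53 to 0.10 (Gdf15), -0.068 to 0.51 (Metrnl) and -0.13 to 0.21 (Adipoq) for Dox in DMSO, and for Metrnl -0.41 to 0.35 (ISO difference) and -0.36 to 0.33 (SR-3420 difference). The cause of these changes was not tested.

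Replicate numbers are shared between groups, but no label ties a number to a day, and 36 of 45 pairs of same-numbered libraries had a correlation of deviations above 0.1 (0.039 to 0.28), and all 18 libraries correlated best with their own number. In 4 of the 9 comparisons every pair of the groups compared was above 0.1. The main fit used group means without pairs in all 9 comparisons, and the block was an alternative only. A replicate block changed no count of members called in the 9 comparisons, put the Metrnl ISO difference at 0.056, and brought the adjusted p of Nrg4 to 0.0303 for ISO without Dox and 0.0457 for the SR-3420 difference, and that of Adipoq to 0.00640 for SR-3420 without Dox. With the block, the share of all genes called rose from 0.265% to 0.403% for SR-3420 without Dox, from 1.31% to 2.31% for the ISO difference and from 0.59% to 1.26% for the SR-3420 difference. Of 60 genes called for the SR-3420 difference, the count became 35 without replicate 1 or 3 of DMSO without Dox, 37 and 28 without replicates 1 and 3 of SR-3420 without Dox, 27 without replicate 3 of DMSO with Dox and 31 without replicate 1 of SR-3420 with Dox, and 100 without a filter. It went from 133 to 87 for the ISO difference without replicate 1 of ISO with Dox, from 27 to 16 for SR-3420 without Dox without replicate 1 of DMSO without Dox, and to 41 for SR-3420 without Dox and 205 for the ISO difference without a filter. With at least 10 counts in every library it went from 1108 to 581 and 1334 to 694 for ISO without and with Dox, 316 to 177 for SR-3420 with Dox, 1079 to 552 and 697 to 346 for ISO against SR-3420, and 91 to 36 for Dox in DMSO. With at least 10 counts in every library, other secreted factors called went from 10 to 6 and from 6 to 2 for ISO without and with Dox, from 2 to 0 for SR-3420 with Dox, and from 11 to 5 and 8 to 5 for ISO against SR-3420, and receptors called for ISO from 5 and 6 to 3 each. Without replicate 3 of DMSO without Dox, 6 were called for ISO without Dox, and without replicate 2 of DMSO or of SR-3420 with Dox, 1 was called for SR-3420 with Dox. For Dox in DMSO 1 other secreted factor was called without a filter, with the block or without replicate 2 of DMSO with Dox.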
